A study of Mus musculus with 11 samples.

Results

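Proline and threonine tRNAs of the embryonic mouse frontal lobe were followed gene by gene in small RNA libraries, 1 per sample. The members were the tRNA genes whose name ends in an anticodon for proline or threonine, 36 of the 433 tRNA genes counted. The 18 proline genes comprised 7 with the anticodon AGG (ProAGG), 3 with CGG (ProCGG) and 8 with TGG (ProTGG). The 18 threonine genes comprised 9 with AGT (ThrAGT), 5 with CGT (ThrCGT) and 4 with TGT (ThrTGT).

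All embryos were of the C57BL/6 strain and were either wild-type or lacked NSUN2 (Nsun2-/-). At E18.5 there were 4 samples of each genotype, and at E13.5 there were 2 that were Nsun2-/- and 1 that was wild-type. Fewer E13.5 samples were analysed here than the replicates per genotype given in the methods, and the file of Nsun2-/- sample 2 at E13.5 carries another replicate number than its label, which was followed. The study's methods describe the samples as independent biological replicates and name 2 mutant mouse lines, D014D11 and Nsun2tm1a(EUCOMM)Wtsi, and the labels do not say which line each sample came from. Both the loss of Nsun2 and the brain region rest on the labels, because only tRNA genes were counted and no Nsun2 transcript or tissue marker is among them. Libraries held between 4011 and 9827 counts, of which 213 to 545 fell on proline and threonine genes. At E18.5 every Nsun2-/- sample was shallower (4011 to 5027 counts) than every wild-type sample (5387 to 5924). The part of this depth difference in the results was not tested.

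A tRNA reads codons through its anticodon, and several anticodon families serve most amino acids. In the families whose anticodon starts with A (ProAGG and ThrAGT), enzymes deaminate this base to inosine, which pairs with several bases at the end of a codon and is copied as G by reverse transcriptase. NSUN2 places 5-methylcytosine mainly at the junction of the variable loop and the T arm of tRNAs, and tRNAs without this mark are known to be cut more readily by the ribonuclease angiogenin. Threonine tRNAs also carry 3-methylcytosine in the anticodon loop, a base that reverse transcriptase often misreads.

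The sequences below show why the anticodon families of proline are hard to tell apart in short reads. The first is the tRNA part of a fragment that the study listed for chr14.trna705-ProAGG, and the others are the first 52 nt of fragments it listed for proline genes, with the anticodon in capitals.
ProAGG, 72 nt: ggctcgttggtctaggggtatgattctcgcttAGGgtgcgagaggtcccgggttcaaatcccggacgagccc
Proline fragment with G: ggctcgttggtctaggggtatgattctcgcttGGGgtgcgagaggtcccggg
Proline fragment with T: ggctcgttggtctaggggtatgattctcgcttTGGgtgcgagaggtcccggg
Proline fragment with C: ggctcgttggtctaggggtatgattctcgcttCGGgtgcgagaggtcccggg

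Over these 52 nt the fragment with G differed from the ProAGG sequence by A33G, from the fragment with T by T33G and from that with C by C33G, counted from 1 at the 5′ end of the tRNA. It therefore lay 1 mismatch from each anticodon version, and the study listed it for genes of all 3 proline families. The aligner allowed 2 mismatches and kept reads with a single best place. A read with G confined to this stretch fits genes of several families, and the counts below rest on reads that could be placed at 1 gene.

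A threonine gene and fragment show differences in the anticodon loop, where the modified bases named above lie. The gene is n-TTagt9 of RefSeq (GRCm38.p6, chr7:35234770-35234843, minus strand), and the fragment was listed by the study for chr13.trna104-ThrAGT and chr7.trna1213-ThrAGT. Capitals again mark the anticodon.
ThrAGT gene, 74 nt: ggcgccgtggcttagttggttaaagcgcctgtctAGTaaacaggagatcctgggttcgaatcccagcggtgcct
ThrAGT fragment, 28 nt: cctgtttGGTaaacaggagatcctgggt

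The fragment differed from the gene by C33T and A35G, counted from 1 at the 5′ end of the gene. The first lies in the loop before the anticodon and the second is the first anticodon base. Whether these differences come from modified bases or from a difference between gene copies was not tested. Against this gene both mismatches that the aligner allowed were used up, so a read with any further difference would not have been placed there.

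As sums, proline tRNAs took about 4% of all tRNA gene counts and threonine tRNAs about 2%, with no difference between genotypes past the threshold. At E18.5 the proline genes held 3.94%, 4.03%, 4.44% and 3.49% of all counts in Nsun2-/- libraries 1 to 4, and 3.62%, 3.37%, 4.01% and 3.56% in wild-type libraries 1 to 4. The groups overlapped. From wild-type to Nsun2-/- the proline sum had a log2 fold change of 0.17 (SE 0.08, edgeR adjusted p = 0.235, n = 4 and 4).

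The threonine genes held 2.05%, 2.06%, 2.03% and 1.82% in the Nsun2-/- libraries, and 2.04%, 1.93%, 2.42% and 2.46% in the wild-type libraries. Wild-type samples 3 and 4 were higher than every Nsun2-/- sample, and samples 1 and 2 lay among them. Their log2 fold change was −0.11 (SE 0.11, edgeR adjusted p = 0.503, n = 4 and 4). Of all 21 amino acid sums tested at this stage, 9.52% passed, none of them proline or threonine. In these bulk samples, fewer cells of a type and less RNA per cell cannot be told apart.

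Proline counts for each threonine count were 1.92, 1.96, 2.19 and 1.92 in Nsun2-/- libraries 1 to 4 at E18.5, and 1.77, 1.74, 1.66 and 1.45 in wild-type libraries 1 to 4. The groups did not overlap, which was also the case for 8.57% of the 210 ratios between 2 amino acid sums. This ratio was set beside the others after its values were seen and was not tested. At E13.5 the order was not the same, with 1.96 and 1.58 in the Nsun2-/- libraries and 2.29 in the wild-type library.

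At E13.5 the proline sum was 3.67% and 3.32% in the Nsun2-/- libraries and 4.57% in the wild-type library (95% Wilson interval 4.10% to 5.09%). Both Nsun2-/- libraries lay below this interval, the opposite order to that of the E18.5 means, which were 3.97% ± 0.39 in Nsun2-/- and 3.64% ± 0.27 in wild-type libraries (SD, n = 4 each). The threonine sum was 1.87% and 2.10% against 2.00% (1.69% to 2.36%). The test of the genotype at E13.5 gave a log2 fold change of −0.32 for proline (SE 0.15, edgeR adjusted p = 0.167) and 0.03 for threonine (SE 0.20, adjusted p = 0.875), with the spread taken from all 11 samples. Intervals of a single sample cover counting error only and not the spread between samples. The libraries were amplified without molecular identifiers, so the intervals may be too narrow even for counting error.

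**Figure D1:**
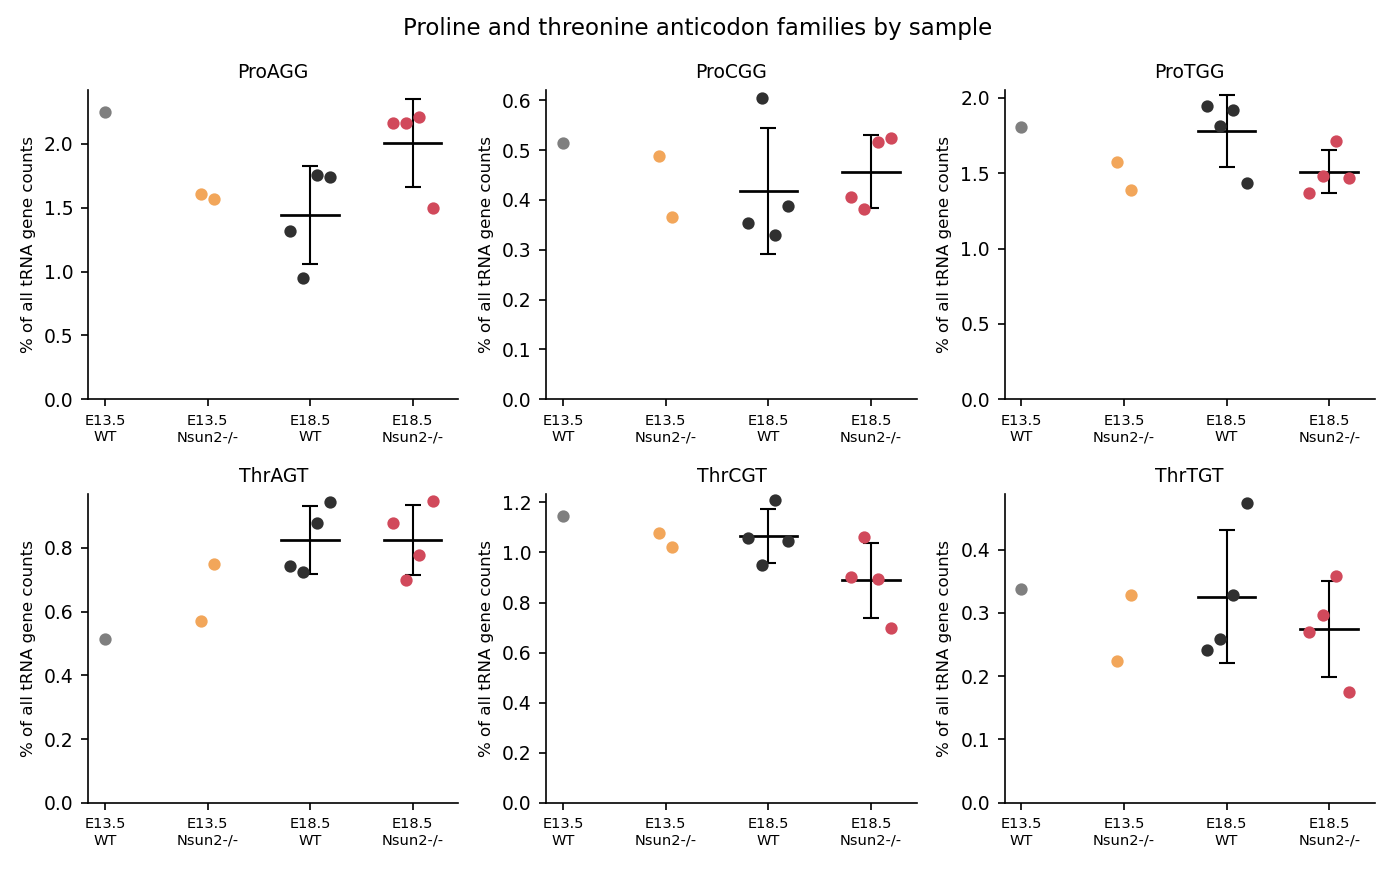
Share of all tRNA gene counts (vertical axis, in percent) of the 6 anticodon families, by stage and genotype (horizontal axis). Points are samples, and bars with whiskers are the mean ± SD of the 4 samples at E18.5. For ProAGG, 3 of the 4 Nsun2-/- libraries at E18.5 lie at 2.16% to 2.21%, above every wild-type library of that stage, while the wild-type library at E13.5 lies at 2.25%.

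Among the families, ProAGG differed between the genotypes at E18.5. This family, whose inosine form serves most proline codons, held 2.16%, 2.16%, 2.21% and 1.496% of all counts in Nsun2-/- libraries 1 to 4, and 1.32%, 0.95%, 1.76% and 1.74% in wild-type libraries 1 to 4. Nsun2-/- library 4 lay within the wild-type range and the other 3 above it. ProAGG was higher in Nsun2-/- by 0.49 on the log2 scale (SE 0.15, 1.41-fold, edgeR adjusted p = 0.0301, n = 4 and 4). It was 1 of the 6 proline and threonine families tested that passed, where 13.3% of all 45 families tested did.

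The fold change kept its direction in every alternative run, while the call was lost in more runs than it was kept. It remained with no filter (log2 fold change 0.55, edgeR adjusted p = 0.0117), with a stricter filter of 10 counts in every sample (0.54, 0.0292), with all 11 samples in the fit (0.52, 0.0125), with the replicate number as a block (0.50, 0.00143) and without Nsun2-/- library 4 or wild-type libraries 3 or 4 (0.59 to 0.65, 0.00734 to 0.0299). It was lost without Nsun2-/- libraries 1, 2 or 3 or wild-type libraries 1 or 2 (log2 fold change 0.34 to 0.48, edgeR adjusted p = 0.0755 to 0.161). It was also lost when Nsun2-/- libraries 1 and 2 were averaged into 1 (0.47, 0.0543), with library size only (0.49, 0.0602), with upper-quartile normalization (0.47, 0.166) and with DESeq2 (0.51, 0.0637). Nsun2-/- libraries 1 and 2 agreed within sampling noise (p = 0.933, chi-square test over 148 genes), as did libraries 2 and 3 (p = 0.858). They were kept as separate samples because their counts were not identical and further pairs also agreed within the noise.

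ProTGG, which reads the proline codons ending in A and G, had the opposite order of means. It held 1.37%, 1.48%, 1.71% and 1.47% in the Nsun2-/- libraries and 1.95%, 1.81%, 1.92% and 1.43% in the wild-type libraries. Wild-type sample 4 fell among the Nsun2-/- libraries and the other 3 lay above them. The log2 fold change was −0.22 (95% interval −0.47 to 0.03, edgeR adjusted p = 0.247).

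ProCGG, the least abundant proline family, held 0.38% to 0.52% in the Nsun2-/- libraries and 0.33% to 0.60% in the wild-type libraries, with a log2 fold change of 0.12 (95% interval −0.42 to 0.66, edgeR adjusted p = 0.809). The groups overlapped, and this wide interval goes with means of 20.8 counts per Nsun2-/- library and 23.8 per wild-type library.

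None of the 3 threonine families passed the test at E18.5. ThrCGT, which reads the threonine codon ending in G, held 0.90%, 1.06%, 0.90% and 0.70% in the Nsun2-/- libraries and 1.06%, 0.95%, 1.21% and 1.05% in the wild-type libraries. The log2 fold change was −0.25 (95% interval −0.55 to 0.05, edgeR adjusted p = 0.274). Nsun2-/- library 2 lay within the wild-type range and the other 3 below it.

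ThrAGT, the inosine family of threonine, held 0.88%, 0.70%, 0.78% and 0.95% in the Nsun2-/- libraries and 0.74%, 0.72%, 0.88% and 0.94% in the wild-type libraries. Its means were 0.82% ± 0.11 in both genotypes (SD, n = 4 each), and its log2 fold change was −0.003 (95% interval −0.33 to 0.33, edgeR adjusted p = 0.985). The sign of this value changed with the processing. ThrTGT, which reads the threonine codons ending in A and G, held 0.18% to 0.36% in the Nsun2-/- libraries and 0.24% to 0.47% in the wild-type libraries, with a log2 fold change of −0.22 (95% interval −0.93 to 0.48, edgeR adjusted p = 0.756).

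In wild-type libraries at E18.5 the families ranked in the order ProTGG (1.78% ± 0.24), ProAGG (1.44% ± 0.39), ThrCGT (1.07% ± 0.11), ThrAGT (0.82% ± 0.11), ProCGG (0.42% ± 0.13) and ThrTGT (0.33% ± 0.11; SD, n = 4 each). The counted intervals are 112 to 114 nt long, so length hardly enters this order, and reads that fit more than 1 gene are not part of it. The ranges of ProTGG and ProAGG overlapped, as did those of ProAGG and ThrCGT and of ProCGG and ThrTGT. In Nsun2-/- libraries the first 2 families changed places, with ProAGG at 2.01% ± 0.34 and ProTGG at 1.51% ± 0.14, and the ranges of these 2 overlapped there too.

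ProAGG and ThrAGT belong to the 10 families in the files whose anticodon starts with A. Of these, 7 were tested at E18.5, 3 with a positive and 4 with a negative log2 fold change, and ProAGG alone passed. Their median log2 fold change was −0.003, beside −0.02 over all 45 families tested, of which 20 were positive and 25 negative.

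The balance of anticodons within proline differed between the genotypes in its means but not past the test. ProAGG made up 54.9%, 53.7%, 49.8% and 42.9% of proline counts in Nsun2-/- libraries 1 to 4 at E18.5, and 36.4%, 28.2%, 43.8% and 48.8% in wild-type libraries 1 to 4. The difference of 10.98 percentage points had p = 0.1143 (two-sided exact permutation test, adjusted p = 0.434, n = 4 and 4). Within wild-type libraries alone ProAGG ranged over more than 20 percentage points.

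ProTGG had the opposite order of means, with 34.9%, 36.8%, 38.6% and 42.1% of proline counts in the Nsun2-/- libraries and 53.8%, 53.8%, 47.9% and 40.3% in the wild-type libraries. The difference was −10.88 percentage points (two-sided exact permutation p = 0.0571, adjusted p = 0.31), and only wild-type library 4 overlapped with the Nsun2-/- libraries. ProCGG had means of 11.6% ± 2.4 and 11.7% ± 4.3 (SD, n = 4 each). Shares within an amino acid add up to the whole in each library. With nearly equal ProCGG means, the ProTGG and ProAGG differences are therefore not separate results.

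Counts of ProAGG for each count of ProTGG were 1.57, 1.46, 1.29 and 1.02 in the Nsun2-/- libraries and 0.68, 0.52, 0.91 and 1.21 in the wild-type libraries. ProAGG thus outnumbered ProTGG in every Nsun2-/- library and in wild-type library 4, and the groups overlapped.

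Within threonine, ThrCGT made up 44.0%, 51.5%, 44.1% and 38.4% of counts in the Nsun2-/- libraries and 51.8%, 49.1%, 50.0% and 42.5% in the wild-type libraries. The difference of −3.85 percentage points was smaller than the SD within the Nsun2-/- libraries (exact permutation p = 0.3429, adjusted p = 0.706). ThrAGT ranged from 34.02% to 52.05% in the Nsun2-/- libraries and only from 36.4% to 38.4% in the wild-type libraries, with means of 41.8% and 37.1% (exact permutation p = 0.3429, adjusted p = 0.706). ThrTGT had means of 13.7% ± 3.3 and 14.5% ± 3.2 (SD, n = 4 each).

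Over all amino acids, 38 anticodon shares were compared in this way, and the 4 against 4 design cannot give an exact p below 0.0286. The groups did not overlap for 15.8% of the 38 shares, none of them of proline or threonine. Shares of the same amino acid depend on each other, and that of selenocysteine was 100% in every sample. The 38 are therefore not separate comparisons. No share had an adjusted p below 0.05 (0.0%), 6 had an unadjusted exact p below 0.05, and edgeR with the amino acid's total as offset called 3, again none of proline or threonine. By that fit the log2 fold change relative to all proline counts was −0.36 for ProTGG (edgeR adjusted p = 0.116) and 0.35 for ProAGG (adjusted p = 0.271).

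**Figure D2:**
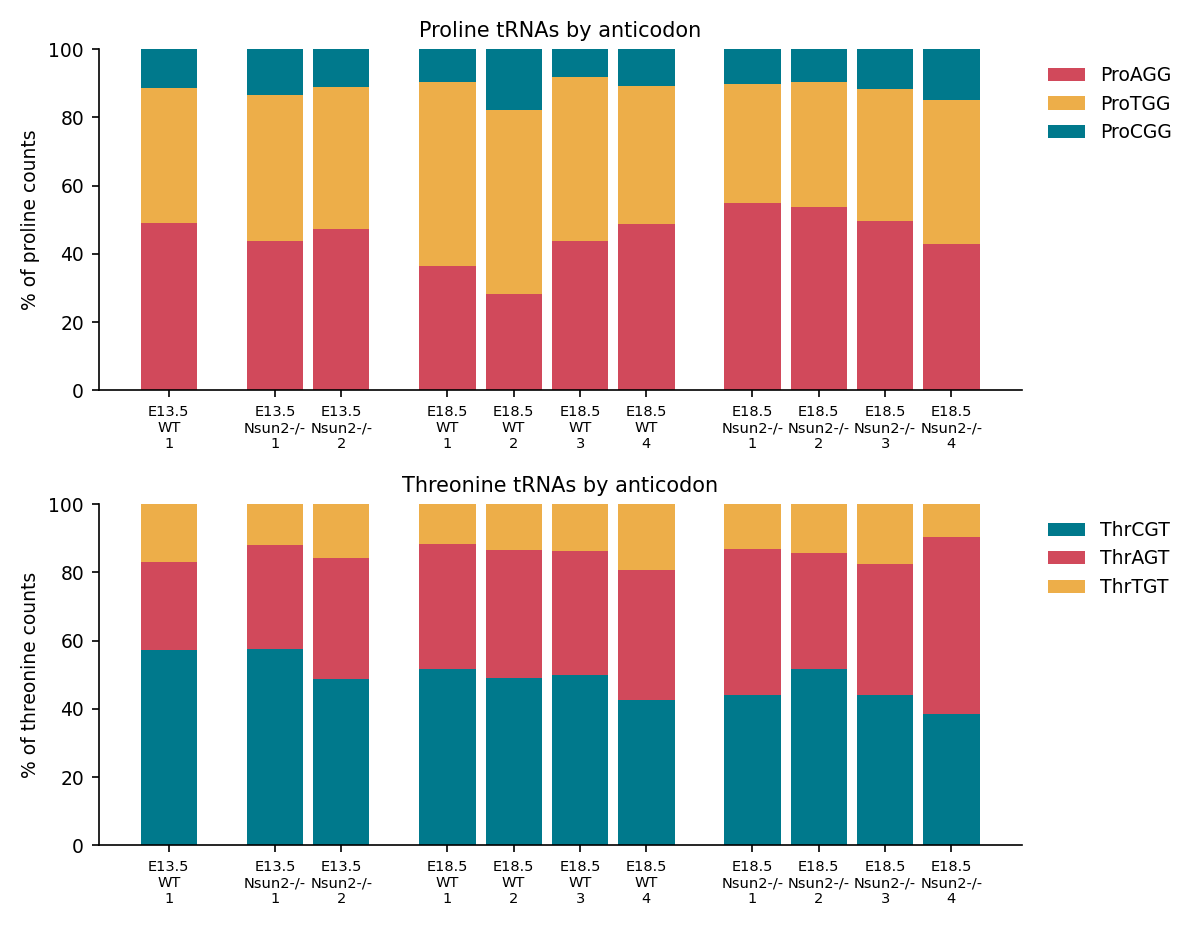
Composition of the proline counts (top) and threonine counts (bottom) by anticodon family, in percent, with 1 bar for each of the 11 samples, ordered by stage and genotype. ProAGG ranges from 28.2% to 48.8% of proline counts in wild-type libraries at E18.5 and from 42.9% to 54.9% in Nsun2-/- libraries.

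At E13.5 ProAGG and ProTGG held similar shares of proline counts in both genotypes. ProAGG held 43.8% and 47.2% of proline counts in the Nsun2-/- libraries and 49.2% in the wild-type library (95% Wilson interval 43.7% to 54.7%), and ProTGG held 42.9% and 41.8% against 39.5% (34.3% to 45.1%). Both Nsun2-/- libraries lay within these intervals. For threonine, ThrCGT held 57.6% and 48.7% against 57.4% (49.0% to 65.4%), and ThrAGT 30.4% and 35.7% against 25.7% (19.1% to 33.7%). Nsun2-/- library 1 lay within both threonine intervals, and library 2 lay below that of ThrCGT and above that of ThrAGT.

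Between the stages, the 4 wild-type libraries of E18.5 all had a lower ProAGG share than the 1 wild-type library of E13.5. ProAGG held 2.25% of all counts in the wild-type library at E13.5 (95% Wilson interval 1.92% to 2.63%) and 0.95% to 1.76% in the 4 wild-type libraries at E18.5, all below the interval. The log2 fold change from E13.5 to E18.5 was −0.67 (SE 0.21, edgeR adjusted p = 0.00917, n = 4 and 1). With 1 library at E13.5 this test takes its spread from the other groups and assumes that this library varies as they do. Of the 6 families it was the 1 that passed in this comparison, in which 29.8% of all 47 families tested passed.

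In Nsun2-/- libraries ProAGG held 1.61% and 1.57% at E13.5 and 1.496% to 2.21% at E18.5, with a log2 fold change of 0.27 (SE 0.17, edgeR adjusted p = 0.237, n = 4 and 2). Nsun2-/- library 4 at E18.5 lay below both E13.5 samples. None of the 6 families passed there by edgeR or DESeq2, and none had an unadjusted p below 0.05, while 14.9% of all families did pass.

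The fitted genotype difference of ProAGG at E13.5 did not pass and its interval included 0. The log2 fold change from wild-type to Nsun2-/- there was −0.43 (95% interval −0.87 to 0.02, edgeR adjusted p = 0.328, n = 2 and 1), beside 0.49 at E18.5. The test of the difference between the stages gave 0.94 (SE 0.26, edgeR adjusted p = 0.0256), 1 of the 4.26% of families that passed. It rests on the single wild-type library at E13.5, whose spread is again taken from the other groups, and it did not pass with DESeq2 (0.91, adjusted p = 0.231) or without Nsun2-/- library 1 or 2 of E13.5 (edgeR adjusted p = 0.0514 and 0.0657).

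No family passed between the genotypes at E13.5 (0.0% of 47 families tested by edgeR, 7 with an unadjusted p below 0.05, and 0 by DESeq2). Besides ProAGG, the proline and threonine families had log2 fold changes between −0.29 for ThrTGT and 0.38 for ThrAGT. ThrAGT was the 1 family of the 6 with a positive log2 fold change between the stages in wild-type libraries, from 0.51% in the E13.5 sample to 0.72% to 0.94% at E18.5, and its log2 fold change of 0.65 (SE 0.28) did not pass (edgeR adjusted p = 0.0746). In Nsun2-/- libraries ThrAGT held 0.57% and 0.75% at E13.5 and 0.70% to 0.95% at E18.5 (log2 fold change 0.29, SE 0.21, edgeR adjusted p = 0.339).

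The other 4 families had log2 fold changes between the stages from −0.31 (ThrCGT in Nsun2-/-) to 0.02 (ThrTGT in Nsun2-/-), and from −0.32 (ProCGG) to −0.06 (ProTGG) in wild-type libraries. ProTGG had the same log2 fold change of −0.06 in both genotypes, with 95% intervals of −0.36 to 0.24 in Nsun2-/- and −0.42 to 0.30 in wild-type libraries. As sums between the stages, proline had log2 fold changes of 0.14 in Nsun2-/- and −0.31 in wild-type libraries, and threonine −0.02 and 0.17. The sums did not pass in Nsun2-/- (edgeR adjusted p = 0.468 and 0.957), and the wild-type values rest on the single E13.5 library.

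**Figure D3:**
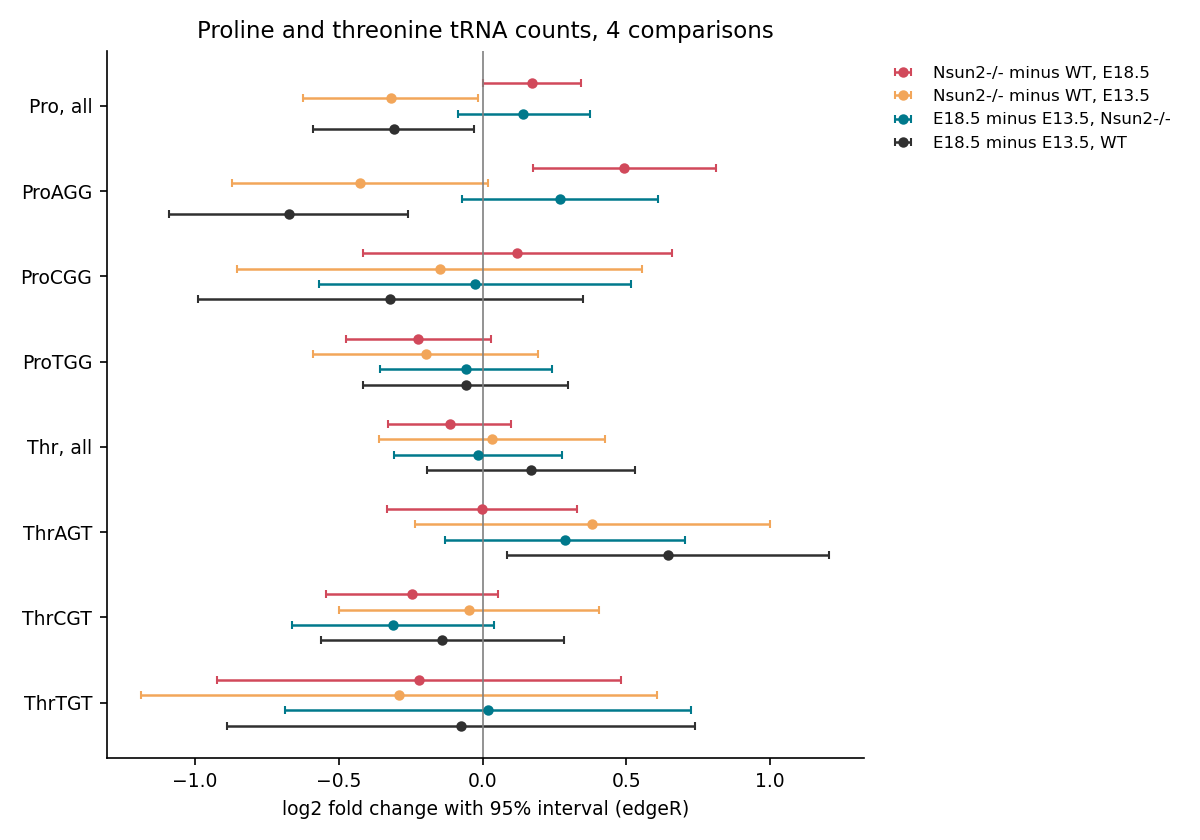
Log2 fold change with its 95% interval (horizontal axis, edgeR) of the proline and threonine sums and the 6 families (vertical axis) in 4 comparisons, marked by colour. ProAGG lies at 0.49 between genotypes at E18.5, −0.43 at E13.5, 0.27 between stages in Nsun2-/- and −0.67 in wild-type libraries.

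Within the families a few copies carried most of the counts. Of the 36 genes, 3 averaged at least 20 counts over the 11 samples, 24 averaged between 1 and 20, 6 averaged less than 1 and 3 had no count in any sample. The 3 most abundant copies were chr14.trna705-ProAGG, chr7.trna441-ProTGG and chr16.trna50-ThrCGT, which made up 48.9%, 60.3% and 68.7% of their families' counts pooled over all samples. Copies without a count were 1 each of ProAGG, ThrAGT and ThrCGT, and a count of 0 allows a share of up to 0.0305% to 0.0748% of a library, depending on its depth. This bound and the copy shares cover uniquely placed reads only, since reads that fit more than 1 gene equally well were not kept. Whether copies with few or no counts share their sequence with others was not tested.

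Proline and threonine genes also lay near each other in the genome. In the coordinates of the files (mm9), 8 pairs of neighbouring members lay at most 3000 bases apart, with 16 genes among them, and 4 of the pairs joined a proline with a threonine gene. The ProAGG copy chr14.trna705 lies 282 bases from chr14.trna704-ThrTGT, and chr7.trna441-ProTGG lies 189 bases from chr7.trna977-ProAGG on the other strand.

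The ProAGG copy chr14.trna705 (mm9 chr14:51684489-51684560, minus strand) differed between genotypes at E18.5 in the same direction as its family. It had 53, 45, 57 and 43 counts in Nsun2-/- libraries 1 to 4 and 32, 16, 42 and 54 in wild-type libraries 1 to 4, or 1.19%, 0.95%, 1.13% and 1.07% of all counts against 0.59%, 0.28%, 0.77% and 0.91%. As shares the groups did not overlap, although wild-type library 4 was close to Nsun2-/- library 2. The log2 fold change was 0.79 (SE 0.23, 1.73-fold, edgeR adjusted p = 0.0409, n = 4 and 4).

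Of the 36 copies 11 passed the filter on low counts and this was the 1 that was called, where 9.43% of all 106 genes tested were. The call was lost without Nsun2-/- libraries 1, 3 or 4 or wild-type libraries 1 or 2 (edgeR adjusted p = 0.0541 to 0.12). It was also lost with Nsun2-/- libraries 1 and 2 averaged (0.0744), with upper-quartile normalization (0.0977) and with the replicate number as a block (0.126). The remaining ProAGG copies together had 43, 57, 54 and 17 counts in the Nsun2-/- libraries and 39, 39, 54 and 49 in the wild-type libraries. With the most abundant copies set aside, ProAGG had a log2 fold change of 0.23, which did not pass (edgeR adjusted p = 0.685), in a fit added after the data were seen.

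The ProTGG copy chr7.trna441 (mm9 chr7:105963925-105963996, plus strand) had 33, 41, 52 and 36 counts in the Nsun2-/- libraries and 64, 63, 66 and 53 in the wild-type libraries at E18.5. As shares of all counts these were 0.74% to 1.03% and 0.90% to 1.21%, and the groups overlapped. Its log2 fold change was −0.27 (SE 0.14, edgeR adjusted p = 0.315). It made up 54.1% to 61.0% in the Nsun2-/- libraries and 60.0% to 62.9% of ProTGG counts in the wild-type libraries.

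The 2 abundant proline copies gave a ratio of chr14.trna705-ProAGG to chr7.trna441-ProTGG of 1.61, 1.1, 1.1 and 1.19 in the Nsun2-/- libraries and 0.50, 0.25, 0.64 and 1.02 in the wild-type libraries at E18.5. This ratio was chosen after its values were seen, was not tested and was not set beside ratios of other gene pairs. As a share of all counts chr14.trna705-ProAGG alone already did not overlap between genotypes, as was the case for 15.1% of all 106 genes. At E13.5 it was 0.78 and 1.09 in the Nsun2-/- libraries and 0.92 in the wild-type library.

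The 2 main ThrCGT copies had fitted differences of opposite sign, neither of which passed, and that of the first turned to −0.014 with upper-quartile normalization. The copy chr16.trna50 (mm9 chr16:13437416-13437487, plus strand) had 31, 35, 33 and 23 counts in the Nsun2-/- libraries and 34, 27, 45 and 36 in the wild-type libraries at E18.5, with a log2 fold change of 0.11 (SE 0.19, edgeR adjusted p = 0.798). The copy chr11.trna550 (mm9 chr11:79518152-79518223, plus strand) had 9, 14, 10 and 4 counts against 19, 22, 17 and 22. As a share of all counts, the second was below every wild-type library in every Nsun2-/- sample, with means of 0.20% ± 0.08 and 0.35% ± 0.03 (SD, n = 4 each).

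Its log2 fold change of −0.77 (SE 0.28, 0.59-fold) did not pass (edgeR adjusted p = 0.104). As shares of all counts, 2 of the 11 copies tested, chr14.trna705-ProAGG and chr11.trna550-ThrCGT, did not overlap between genotypes, beside 15.1% of all 106 genes.

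Within its own family, chr16.trna50-ThrCGT made up 77.5%, 70%, 73.3% and 82.1% of ThrCGT counts in the Nsun2-/- libraries and 59.6%, 49.1%, 68.2% and 58.1% in the wild-type libraries. These did not overlap, which held for 1 of the 11 proline and threonine copies and for 9.52% of the 105 genes that have a second copy in their family. The remaining ThrCGT copies together had 9, 15, 12 and 5 counts in the Nsun2-/- libraries and 23, 28, 21 and 26 in the wild-type libraries. In the fit without the most abundant copies, added after the data were seen, ThrCGT was lower in Nsun2-/- by 0.94 on the log2 scale (edgeR adjusted p = 0.0283). Most of these remaining counts were those of chr11.trna550, whose own test did not pass (edgeR adjusted p = 0.104). This fit and the family share of chr16.trna50 are therefore not separate from the counts of that copy.

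The ThrAGT copy chr13.trna996 (mm9 chr13:21341063-21341136, minus strand) had 7, 9, 10 and 10 counts in the Nsun2-/- libraries at E18.5 and 9, 10, 14 and 19 in wild-type (log2 fold change −0.19, SE 0.30, edgeR adjusted p = 0.798). The other 6 copies tested had log2 fold changes between −0.26 for chr17.trna996-ProTGG and 0.57 for chr1.trna672-ProAGG, and none passed. The remaining 25 copies were below the filter or without counts.

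**Figure D4:**
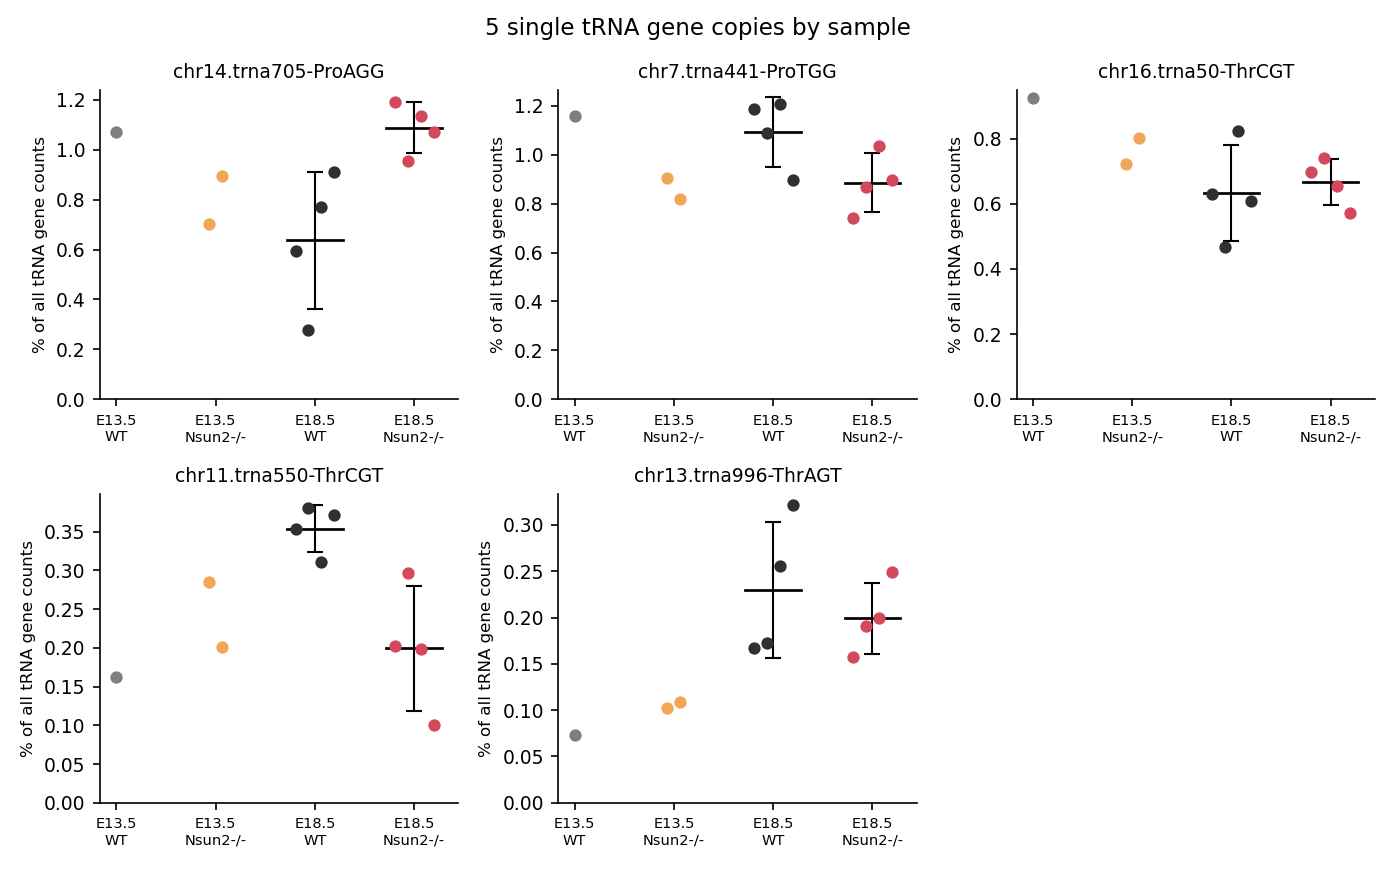
Share of all tRNA gene counts (vertical axis, in percent) of 5 single copies, by stage and genotype (horizontal axis). Points are samples, and bars with whiskers are the mean ± SD of the 4 samples at E18.5. The Nsun2-/- libraries at E18.5 lie above all wild-type libraries for chr14.trna705-ProAGG and below them for chr11.trna550-ThrCGT.

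Between the stages 17 copies were tested, and none passed in either genotype. At E13.5, chr14.trna705-ProAGG held 1.07% of all counts in the wild-type library and 0.70% and 0.89% in the Nsun2-/- libraries. In wild-type libraries its log2 fold change from E13.5 to E18.5 was −0.77 (SE 0.29, edgeR adjusted p = 0.0584), while in Nsun2-/- libraries it was 0.42 (SE 0.23, adjusted p = 0.248). Of the 155 genes tested, 20.0% passed in wild-type and 16.1% in Nsun2-/- libraries.

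In wild-type libraries chr16.trna50-ThrCGT had 63 counts at E13.5 (0.93% of all counts) and 0.47% to 0.82% at E18.5, with a log2 fold change of −0.58 (SE 0.23, edgeR adjusted p = 0.0834). For chr11.trna550-ThrCGT the wild-type values were 11 counts (0.16%) and 0.31% to 0.38%, with a log2 fold change of 1.101 (SE 0.45, adjusted p = 0.0842). For chr13.trna996-ThrAGT they were 5 counts (0.07%) and 0.17% to 0.32%, with a log2 fold change of 1.60 (SE 0.60, adjusted p = 0.0584). Each of these rests on 1 wild-type library at E13.5 and on few counts.

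In Nsun2-/- libraries chr13.trna996-ThrAGT had 10 and 6 counts at E13.5 (0.10% and 0.11%) and 0.16% to 0.25% at E18.5. The log2 fold change in Nsun2-/- libraries was 0.85 (SE 0.44, edgeR adjusted p = 0.214). For chr11.trna550-ThrCGT, the E13.5 Nsun2-/- libraries held 0.285% and 0.20%, above the wild-type library, and the E18.5 samples 0.10% to 0.30%. For chr7.trna441-ProTGG the log2 fold changes between stages were −0.03 in Nsun2-/- and −0.11 in wild-type libraries (edgeR adjusted p = 0.929 and 0.772). No gene passed between the genotypes at E13.5 (0.0% of 155 genes by edgeR, 11 with an unadjusted p below 0.05, and 0 by DESeq2), and none of the 17 proline and threonine copies tested had an unadjusted p below 0.05.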

How the data were processed

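The authors deposited raw counts of reads per tRNA gene for each of the 11 samples. According to the methods and file headers, adapter-trimmed reads were aligned with bowtie (at most 2 mismatches, a single best place), unmapped reads were realigned after trimming CCA ends, and featureCounts 1.4.4 counted reads on each tRNA with 20 nt on either side, with no strand setting given. The headers name an mm9 tRNA annotation and the methods GRCm38/mm10, so coordinates are given as in the files, as mm9, and no other annotation was used with them. Fragments and full-length tRNAs add to the same count.

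Counts were summed by anticodon family and amino acid and tested over all features with edgeR 4.0.16 (R 4.3.3, quasi-likelihood test, TMM normalization, filterByExpr with a minimum count of 10, Benjamini-Hochberg adjustment, threshold 0.05). Each SE was taken as the size of the log2 fold change over the root of its F statistic. The E18.5 comparison used its 8 samples, and the others used all 11 samples in one fit. Anticodon shares, for families with a mean of at least 10 counts, were compared with exact permutation tests (scipy 1.17.1). Copies were named if they averaged at least 20 counts or had an unadjusted p below 0.05 in a comparison of genes, and copies outside this rule are named for range ends, positions or listed fragments. Members, lists and tests were chosen with earlier results of these data known. Alternatives included DESeq2 1.42.0. Counts with a fixed dispersion and a log2 fold change of 1 were simulated for the E18.5 comparison. Of the changed features that passed the filter, 88% of genes and 92.5% of families were recovered. On average 110.7 of 433 genes and 45.2 of 53 families passed it, and changed features below it do not enter these percentages. Smaller changes, such as the 0.49 of ProAGG, were not simulated, and the percentages do not apply to them. More features were also changed there than were called in the data. On average 69.3 genes and 13 families were called in the simulation, beside 10 and 6 in the data. The smallest measurable share, 3 counts, was 0.0305% to 0.0748% of a library. Samples with the same replicate number were not treated as pairs in the main tests.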

Additional observations from a re-analysis of the deposited data

Results flagged for a closer look

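The genotype effect on ProAGG differed between the stages by 0.94 on the log2 scale (edgeR adjusted p = 0.0256, test of the difference itself), with 1 wild-type sample at E13.5, whose spread was taken from the other groups. Nsun2-/- sample 4 at E18.5 lay far from the other 3 samples of its group in 2 measures. It had 1.496% of all counts on ProAGG, where the others had 2.16% to 2.21%, and 1.82% on threonine genes, where the others had 2.03% to 2.06%. It was also the library with the fewest counts (4011), whose part in these values was not tested. Without it ProAGG was higher in Nsun2-/- by 0.65 on the log2 scale (edgeR adjusted p = 0.0115). In all, 38 sets of 4 samples were checked in this way, and chance marks about 1 in 20.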

How the results depend on the processing

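Of 385 recomputed differences, 329 kept their direction and their side of the threshold, 34 changed sign, 21 lost a call and 1 gained one. Of 32 recomputed counts of calls, 22 stayed within 1.5 times the reported count. At E18.5 ProAGG had a log2 fold change of 0.51 with DESeq2, 0.49 with library size only, 0.47 with upper-quartile normalization and with Nsun2-/- samples 1 and 2 averaged, 0.23 without the most abundant copies, and 0.34 to 0.65 when single samples were left out. Without those copies ThrCGT, then mostly counts of chr11.trna550, had −0.94 (edgeR adjusted p = 0.0283). ThrAGT, at −0.003, turned positive with DESeq2 (0.019), without a filter (0.054), with a stricter filter of 10 counts in each sample (0.044), with all 11 samples (0.022), with the replicate block (0.007) and with samples averaged (0.027), and lay between −0.060 and 0.095 with single samples left out. ThrTGT then ranged from −0.37 to 0.043 and chr13.trna996-ThrAGT from −0.31 to 0.052. Upper-quartile normalization moved the median of all genes from 0.02 to −0.10, and with it chr16.trna50-ThrCGT lay at −0.014. The cause of these changes was not tested.

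The difference in the ProCGG share became 0.47 percentage points with samples averaged, 1.77 without the abundant copies and −1.26 to 1.98 with single samples left out, and that of ThrTGT 0.44 and −2.10 to 0.76. At E13.5 ThrCGT had 0.005 with DESeq2, and ThrTGT −0.54 to 0.059 without single samples. Between stages in Nsun2-/-, ProCGG had 0.046 with library size only, 0.003 with no filter and −0.15 to 0.22 without single samples, ProTGG 0.014 with library size only and −0.11 to 0.025, and ThrTGT −0.069 with DESeq2 and −0.33 to 0.27. For the difference between stages, ProTGG had −0.035 with DESeq2 and −0.054 to 0.084 without single samples, and ThrTGT −0.01 and −0.26 to 0.34.

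The number of genes called at E18.5, 10, became 6 with DESeq2, 4 with upper-quartile normalization, 5 with samples averaged and 4 to 10 with single samples left out (5 without Nsun2-/- sample 1 or wild-type sample 1, 4 without Nsun2-/- sample 3). The number of families, 6, became 1 with upper-quartile normalization and 3 to 9 (3 without Nsun2-/- sample 1 or 2). With the replicate number as a block, 3 genes and 6 families were called, ProAGG had 0.50 (edgeR adjusted p = 0.00143) and chr14.trna705-ProAGG no longer passed (0.82, adjusted p = 0.126). Same-numbered samples correlated at 0.25, 0.09, 0.18 and −0.12, and samples of unlike number at −0.25 to 0.28. With so few counts per gene these values cannot decide whether the number is a pairing. Low counts limit the precision of single copies, of which 33 of 36 average under 20 counts.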
